A study of Bos taurus with 8 samples.

Results

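Leucine, isoleucine and valine, the branched-chain amino acids, are broken down mainly in mitochondria, and 8 genes of this pathway were described in bovine granulosa cells. The 8 genes were BCAT1, BCAT2, BCKDHA, BCKDHB, DBT, BCKDK, IVD and MCCC1, of 18010 genes that the platform table names by a single symbol. The rule takes, for each gene, the probe set that names it alone and has the highest mean over the 8 arrays. Each of the 8 genes had 1 such probe set, so this mean decided nothing. The genes were gathered with results of the same arrays known, and BCAT2 and the transporter gene SLC7A5 are on a list that the study chose on these cows. Their differences between groups are therefore a description and no independent evidence.

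The High A4 group held granulosa cells from 4 cows whose dominant follicle was rich in androstenedione (A4), an androgen that granulosa cells convert to estrogen, with a group mean of 356 ng/mL. The Control group held granulosa cells from 4 cows with A4-poor follicles and a group mean of 1.9 ng/mL. All 8 were beef cows of 75% Red Angus and 25% MARC III breeding, no androgen treatment is named for them, and the sources used here do not give ages. In both groups the cycle was synchronized with gonadotropin releasing hormone, a progesterone device worn for 7 days and prostaglandin F2 alpha, and the ovaries were removed about 36 hours after the device. Mural and cumulus cells of estrogen-active follicles were not separated, with a stated purity of at least 94%. The cows of each group came from the extremes of A4 content, so the groups stand for follicles of very high and very low A4, not for a range. Each cow gave 1 Affymetrix Bovine Gene 1.0 ST array, and errors are therefore spreads between animals.

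The first step of the pathway is a reversible transfer of the amino group to alpha-ketoglutarate, which yields glutamate and a branched-chain ketoacid. It is carried out by BCAT1 in the cytosol and BCAT2 in mitochondria. The second step, which commits the carbon skeleton to breakdown, is catalysed by the branched-chain ketoacid dehydrogenase complex, which the kinase BCKDK switches off and the phosphatase PPM1K switches on. The carbon of leucine then goes to acetyl-CoA and acetoacetate, that of valine to succinyl-CoA, and that of isoleucine to both acetyl-CoA and succinyl-CoA.

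The arrays differed in a way that touches every value below. Between 9065 and 9403 of the 26773 probe sets were above the noise threshold of 100 on the High A4 arrays, against 9551 to 9687 on the Control arrays. Over the 10120 probe sets tested, those whose mean exceeded 100 in High A4 or in Control, 74.3% had a negative log2 fold change (High A4 over Control), and the median was -0.16. For some genes the log2 fold change is therefore also given relative to this median. With Benjamini-Hochberg adjustment over the 10120 probe sets, limma called 158 up and 63 down in High A4 at an adjusted p under 0.05. The share of calls that were higher was 71.5%, and 90.6% when each array was centred on the median of the probe sets tested. Without High A4 replicate 4 it was 34.4%, with 302 higher and 575 lower.

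None of the 7 genes above the noise threshold passed the limma test over all probe sets, in either direction. Over all probe sets tested, 1.56% were called higher and 0.623% lower. Without adjustment, a p under 0.05 was reached by BCAT2 as higher and by 0 of the 7 as lower, where 4.83% of all probe sets were higher and 17.1% were lower. A plain analysis of variance was also run on the log2 values, without the array tool of the methods. At the methods' unadjusted threshold and fold change, 1 of the 7 genes passed (BCAT2). Over all probe sets tested, 2.74% passed as higher and 4.38% as lower. After Benjamini-Hochberg adjustment that analysis called 96 probe sets higher and 24 lower, and 0 of the 7 genes. The median log2 fold change of the 7 genes was -0.16, and that of all probe sets tested was also -0.16. Of the 7, 6 had a negative log2 fold change and BCAT2 a positive one, where 74.3% of all probe sets tested were negative.

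**Figure D1:**
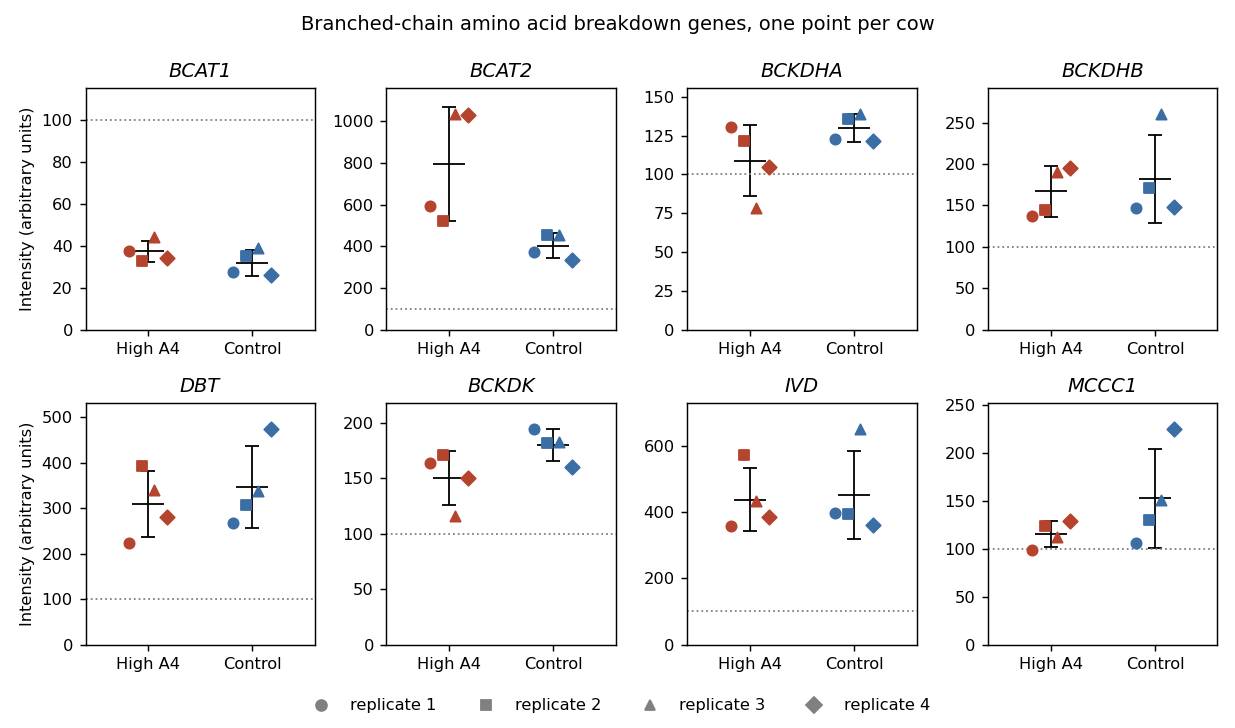
Normalized intensity (linear axis from 0, arbitrary units) of the 8 genes in each cow, with High A4 left of Control in every panel. Points are cows with 1 marker shape per replicate number, bars are the mean and SD of 4 cows, and the dotted line is the noise threshold of 100. BCAT2 is the panel in which the groups do not overlap, and BCAT1 lies under the threshold on all 8 arrays.

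BCAT2 carried the clearest difference among the 8 genes. Its intensity was 593, 522, 1033 and 1029 in High A4 replicates 1 to 4, against 372, 454, 452 and 332 in Control replicates 1 to 4. All 4 High A4 cows lay above all 4 Control cows, and High A4 replicates 3 and 4 lay well above replicates 1 and 2. Among all probe sets tested, 2.93% separated in this direction. High A4 cows averaged 794 ± 275 and Control cows 402 ± 60.5 (SD, n = 4 cows each). The fold change was 1.90, or 0.93 on the log2 scale (standard error 0.24, 95% interval 0.39 to 1.46, adjusted p = 0.0847 from limma), and 1.09 relative to the median of all probe sets tested.

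The direction of the BCAT2 difference held in every setting and its side of the threshold did not. With 1 cow left out at a time the log2 fold change stayed between 0.78 and 1.10, and the adjusted p from limma was between 0.0523 and 0.199. The log2 fold change was lowest without High A4 replicate 3 and highest without High A4 replicate 2. BCAT2 passed without the noise filter (adjusted p = 0.0378 from limma), with cyclic loess (log2 fold change 1.08, adjusted p = 0.0427) and with arrays centred on the median of the probe sets tested (1.09, adjusted p = 0.0421). Limma called 2267 of 26773 probe sets higher without the filter, 182 of 10120 with cyclic loess and 183 of 10120 with that centring. As reported above it called 158 of 10120. BCAT2 did not pass with quantile normalization (1.05, adjusted p = 0.0552), and its adjusted p over all settings ranged from 0.0378 to 0.206.

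**Figure D2:**
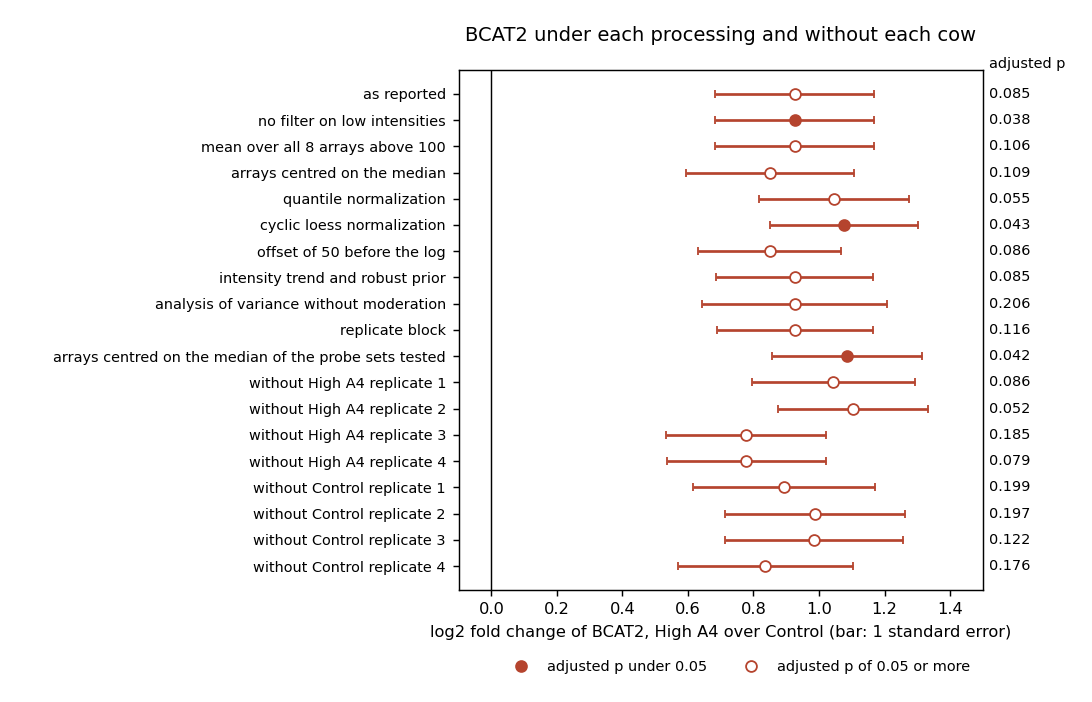
Log2 fold change of BCAT2, High A4 over Control, with 1 standard error (bars) as reported, under each other processing and without each cow, with the adjusted p from limma (for the analysis of variance, from that test) at the right. Filled points passed at an adjusted p under 0.05. All values lie between 0.78 and 1.10, and the 3 filled points are the fit without the noise filter, cyclic loess, and centring on the probe sets tested.

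BCAT1, the cytosolic transaminase, was under the noise threshold on all 8 arrays and was left out by the noise filter. Its intensity was 37.7, 32.7, 44.2 and 34.3 in High A4 and 27.5, 34.9, 38.7 and 25.8 in Control, and the groups overlapped. Without the noise filter its log2 fold change was 0.24 (95% interval -0.14 to 0.63, adjusted p = 0.419 from limma), and it did not pass.

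The 3 subunits particular to the dehydrogenase complex had small negative log2 fold changes, and none passed. BCKDHA, which encodes the alpha subunit of the decarboxylase E1 and carries the sites that BCKDK phosphorylates, had 130, 122, 78.6 and 105 in High A4 and 123, 136, 139 and 122 in Control. High A4 replicate 3 was the lowest cow and fell under the noise threshold, while High A4 replicate 1 lay inside the Control range. Its log2 fold change was -0.28 (95% interval -0.65 to 0.10, adjusted p = 0.345 from limma). Without High A4 replicate 3 it was -0.13 (adjusted p = 0.607 from limma).

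BCKDHB, the beta subunit of E1, had 138, 144, 191 and 195 in High A4 and 147, 171, 260 and 148 in Control. Control replicate 3 was the highest of the 8 cows. Its log2 fold change was -0.10 (95% interval -0.57 to 0.37, adjusted p = 0.789 from limma) and turned to 0.086 without that cow. DBT, the E2 core that carries the lipoyl group and passes on the acyl chain, had 224, 392, 341 and 282 in High A4 and 269, 308, 338 and 475 in Control. Both groups spanned most of the same range, and the log2 fold change was -0.16 (95% interval -0.65 to 0.32, adjusted p = 0.668 from limma). With 1 cow left out the DBT value ranged from -0.29 (High A4 replicate 2 omitted) to -0.0014 (Control replicate 4 omitted), and it was -0.018 when High A4 replicate 1 was omitted.

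Relative to the median of all probe sets tested, the log2 fold changes of BCKDHA, BCKDHB and DBT were -0.11, 0.06 and 0.00. The signs of BCKDHB and DBT also turned with cyclic loess, and that of BCKDHB with quantile normalization. The upper ends of their 95% intervals, at most 0.37, lay under the log2 fold change of BCAT2.

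BCKDK, the kinase that inhibits the complex, had 163, 170, 116 and 150 in High A4 and 194, 182, 182 and 160 in Control. High A4 replicate 3 was again the lowest cow, and High A4 replicates 1 and 2 overlapped with Control replicate 4. For BCKDK this gave a log2 fold change of -0.27 (95% interval -0.61 to 0.06, adjusted p = 0.305 from limma), or -0.11 relative to the median, and -0.15 without High A4 replicate 3 (adjusted p = 0.531 from limma). PPM1K, the phosphatase that reverses the phosphorylation, had 765, 790, 756 and 852 in High A4 and 676, 698, 1245 and 967 in Control (log2 fold change -0.14, adjusted p = 0.688 from limma). The High A4 cows of PPM1K lay within the Control range.

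The leucine branch was represented by IVD and MCCC1. IVD, which oxidizes isovaleryl-CoA, had 359, 574, 434 and 388 in High A4 and 399, 397, 653 and 363 in Control. For IVD this gave a log2 fold change of -0.03 (95% interval -0.51 to 0.45, adjusted p = 0.946 from limma), or 0.14 relative to the median. Its sign turned without High A4 replicate 1, High A4 replicate 4 or Control replicate 3, and with 3 of 4 other scalings of the arrays. MCCC1, the biotin-bearing subunit of the carboxylase that follows IVD, had 98.2, 124, 112 and 128 in High A4 and 105, 130, 151 and 225 in Control. Control replicate 4 was the highest cow, and High A4 replicate 1 was just under the noise threshold. MCCC1 had a log2 fold change of -0.35 (95% interval -0.84 to 0.13, adjusted p = 0.354 from limma), or -0.19 relative to the median, and -0.15 without Control replicate 4. AUH, the hydratase that follows, was under the noise threshold.

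**Figure D3:**
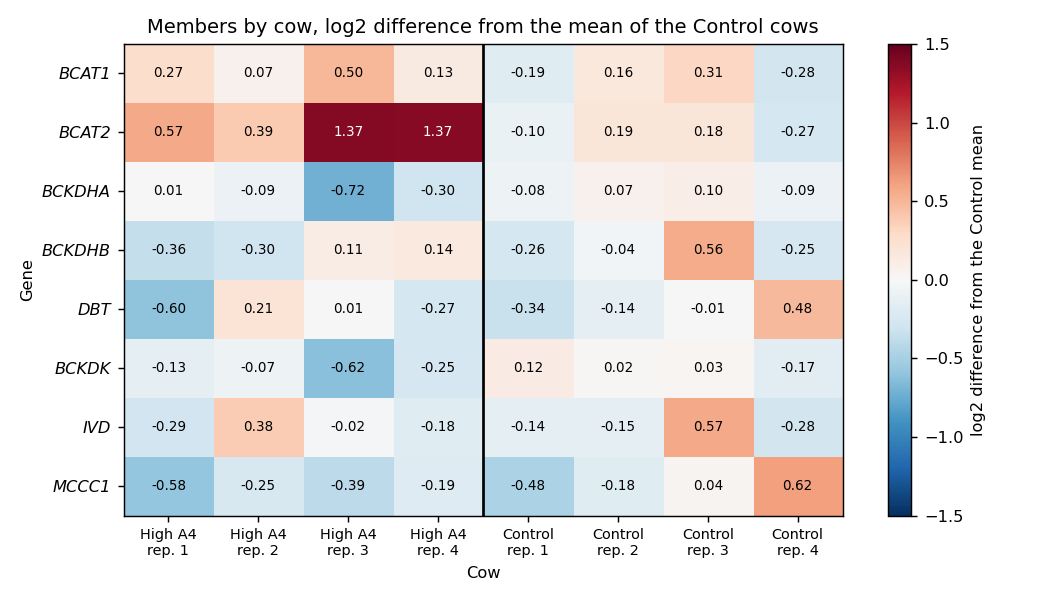
Log2 difference of each of the 8 genes (rows) in each cow (columns, High A4 left of the black line and Control right of it) from the mean of the Control cows. Red is higher and blue is lower. BCAT2 is red in all 4 High A4 cows, up to 1.37 in replicates 3 and 4, while no other gene has the same colour across High A4 at that size.

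The genes did not move as a block across the cows. BCAT2 stood 1.37 above the Control mean on the log2 scale in both High A4 replicates 3 and 4, 0.57 in replicate 1 and 0.39 in replicate 2. In High A4 replicate 3, BCKDHA stood at -0.72 and BCKDK at -0.62, while BCKDHB stood at 0.11 and DBT at 0.01. In High A4 replicate 4, BCKDHA stood at -0.30 and BCKDK at -0.25. BCAT2 was also set against the other 6 tested genes within each array. The log2 deviation of BCAT2 minus the mean log2 deviation of these 6 was 0.90, 0.41, 1.65 and 1.54 in High A4 and 0.10, 0.26, -0.03 and -0.32 in Control. The groups did not overlap in this difference, and High A4 replicate 2 lay close to Control replicate 2. This quantity was formed after the values were seen and was not tested.

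The 3 genes with a pattern most like that of BCAT2 were IAH1, ATP6V1C2 and NINJ1, of 7653 other genes above the noise threshold. Likeness was the root mean square difference of log2 values over the 8 cows, each gene taken relative to its own mean, and it was 0.25, 0.29 and 0.30. IAH1, an esterase, had 545, 530, 829 and 964 in High A4 and 450, 469, 564 and 464 in Control, with High A4 replicates 3 and 4 above replicates 1 and 2, as for BCAT2. ATP6V1C2, a subunit of the vacuolar proton pump, had a log2 fold change of 0.92 (adjusted p = 0.11 from limma). Its mean exceeded the noise threshold only in High A4 (123, against 66.3 in Control). NINJ1, a cell surface protein, had 0.60 (adjusted p = 0.092 from limma), and its High A4 cows all lay above its Control cows. In this direction 2.93% of all probe sets tested separated. Likeness took in the group difference of BCAT2, so the choice of these 3 genes favoured positive fold changes, low p-values and separated groups. Their differences between groups are therefore a description and no independent evidence. Among the described genes above the noise threshold, the one nearest to BCAT2 was BCKDHB, at a root mean square difference of 0.56 and rank 686 of 7653. BCAT1, under the threshold, was not compared.

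The rest of the pathway was taken from lists of 34 genes written from textbook knowledge, of which 31 had a probe set of their own and 20 of these exceeded the noise threshold. Limma called 0 of the 20 at an adjusted p under 0.05. An unadjusted p under 0.05 was reached by 4, all lower, SLC7A5, SLC3A2, ECHS1 and MMAB, where the share of lower probe sets over all those tested was 17.1%. By the plain analysis of variance at the same unadjusted threshold and fold change as above, SLC7A5 and ECHS1 passed, where 4.38% of all probe sets passed as lower. Among the 20, 19 had a negative log2 fold change, where 74.3% of all probe sets tested did. This count depended on the scaling. Centring each array on the median of the probe sets tested turned PPM1K, DLD, ACADSB, PCCA, PCCB, MMUT, SLC25A44 and SESN3 positive. The median of the 20 was -0.21, against -0.16 over all probe sets tested. With the genes under the noise threshold included, the median of the 31 was -0.14.

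**Figure D4:**
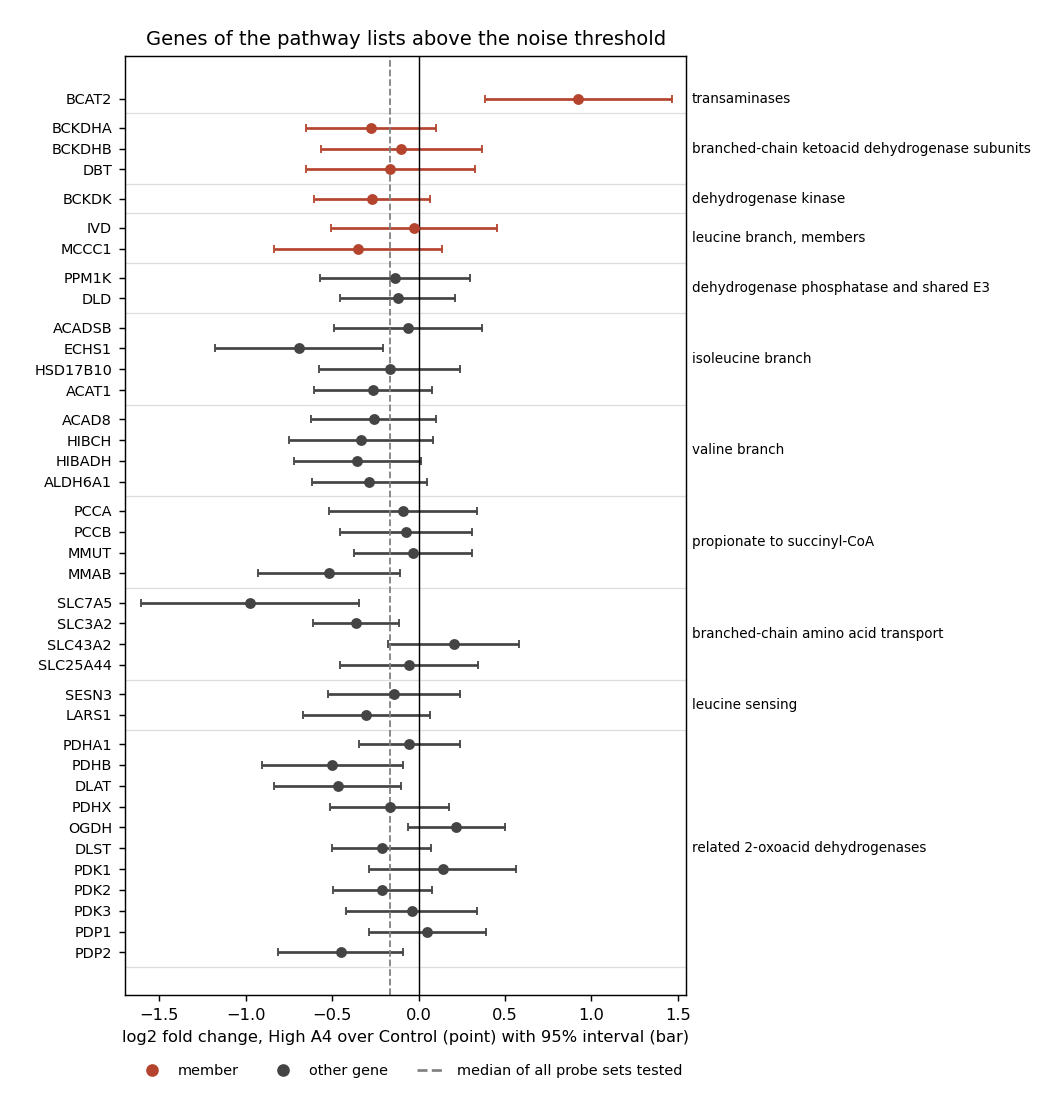
Log2 fold change, High A4 over Control, with its 95% interval for every gene of the pathway lists above the noise threshold, grouped by step. Red points are the genes described here (BCAT1 is under the threshold), grey points are other genes, and the dashed line is the median of all probe sets tested at -0.16. BCAT2 is the point farthest to the right, and SLC7A5 at -0.97 the point farthest to the left.

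The most negative log2 fold change among the 20 was that of SLC7A5, a gene of leucine uptake. SLC7A5, the large neutral amino acid transporter that brings in leucine, had 45.9, 78.3, 64.0 and 77.0 in High A4, against 190, 161, 113 and 76.5 in Control. The 4 High A4 cows were under the noise threshold, and Control replicate 4 lay at the High A4 level while the other 3 Control cows lay above it. The mean exceeded 100 only in Control (135, against 66.3 in High A4), so the noise filter let SLC7A5 in through its higher group. The log2 fold change was -0.97 (standard error 0.28, 95% interval -1.61 to -0.34, adjusted p = 0.108 from limma), or -0.81 relative to the median. Without Control replicate 4 it was -1.22 (adjusted p = 0.0458 from limma), the only setting in which its adjusted p passed. Limma called 51 of 10142 probe sets lower in that setting.

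SLC3A2, named after its values were seen, encodes the heavy chain that brings SLC7A5 to the cell surface. It had 349, 359, 367 and 397 in High A4 and 472, 454, 486 and 479 in Control. The groups did not overlap and the cows within each group lay close together, in a direction in which 10.4% of all probe sets separated. For SLC3A2 the log2 fold change was -0.36 (95% interval -0.61 to -0.11, limma adjusted p = 0.125), or -0.20 relative to the median. SLC43A2, a uniporter of the same amino acids, averaged 1577 ± 222 in High A4 cows and 1376 ± 244 in Control cows (SD, n = 4 each), with a log2 fold change of 0.20 (limma adjusted p = 0.482). SLC25A44, the mitochondrial carrier of branched-chain amino acids, had a log2 fold change of -0.05 (adjusted p = 0.869 from limma).

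**Figure D5:**
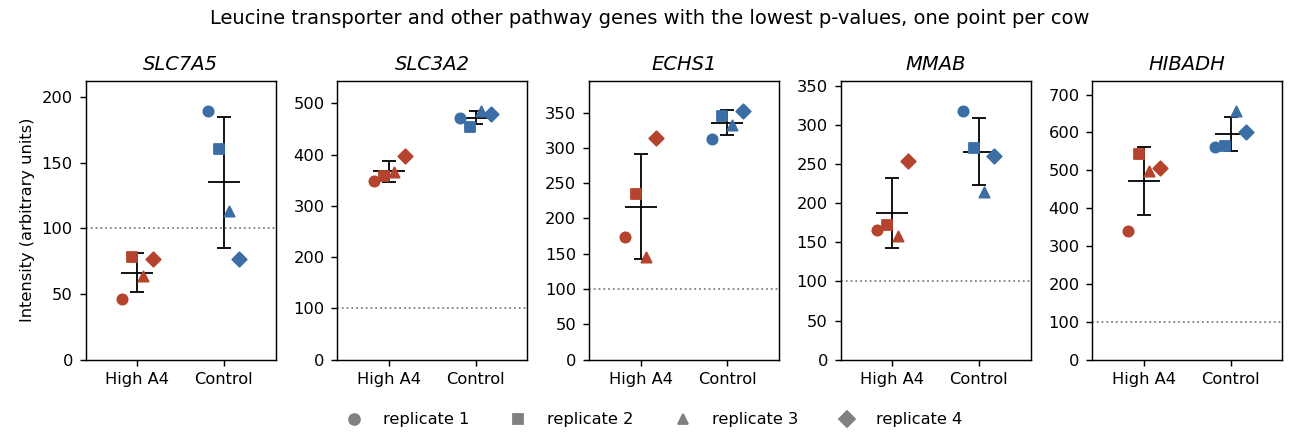
Normalized intensity (linear axis from 0, arbitrary units) of SLC7A5, SLC3A2, ECHS1, MMAB and HIBADH in each cow, High A4 left of Control, with the mean and SD of 4 cows as bars and the noise threshold of 100 as a dotted line. These 5 genes had the lowest p-values among the 20. The groups do not overlap for SLC3A2 and HIBADH, in a direction in which 10.4% of all probe sets tested separated. For SLC7A5, ECHS1 and MMAB 1 cow brings the groups together.

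In the isoleucine branch, ECHS1, an enoyl-CoA hydratase shared with fatty acid oxidation, had 173, 235, 145 and 314 in High A4 and 312, 345, 332 and 352 in Control. High A4 replicate 4 reached the lowest Control cow and the other 3 High A4 cows lay below Control. The log2 fold change was -0.69 (95% interval -1.18 to -0.20, adjusted p = 0.13 from limma), or -0.53 relative to the median. Without High A4 replicate 4 it was -0.89 (adjusted p = 0.0172 from limma). In that setting limma called 575 of 10211 probe sets lower, against 63 of 10120 with all 8 cows. ACADSB, HSD17B10 and ACAT1 had log2 fold changes from -0.27 to -0.06 and did not pass.

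In the valine branch all 4 genes had log2 fold changes between -0.35 and -0.26, and none passed (adjusted p from 0.239 to 0.355 in limma). HIBADH, which oxidizes 3-hydroxyisobutyrate, had 340, 544, 498 and 506 in High A4 and 561, 563, 657 and 601 in Control, with no overlap. In this direction 10.4% of all probe sets tested separated. The log2 fold change of HIBADH was -0.35, or -0.19 relative to the median of all probe sets tested. On the way from propionate to succinyl-CoA, MMAB, which makes the cobalamin cofactor of methylmalonyl-CoA mutase, averaged 188 ± 44.5 in High A4 cows and 266 ± 42.4 in Control cows (SD, n = 4 each), with a log2 fold change of -0.52 (limma adjusted p = 0.159). Relative to the median of all probe sets tested it was -0.35. Without High A4 replicate 4 the log2 fold change of MMAB was -0.67 (adjusted p = 0.0333 from limma), where 575 of 10211 probe sets were called lower. PCCA, PCCB and the mutase gene MMUT had log2 fold changes from -0.09 to -0.03 and did not pass. LARS1, a leucyl-tRNA synthetase that also takes part in leucine sensing, had a log2 fold change of -0.30 (adjusted p = 0.297 from limma). None of the 4 measured genes for biotin and lipoate attachment was above the noise threshold.

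The pyruvate and 2-oxoglutarate dehydrogenases are built on the same plan and share the subunit DLD with the branched-chain complex. DLD averaged 317 ± 43.7 in High A4 cows and 344 ± 41.1 in Control cows (SD, n = 4 each), with a log2 fold change of -0.12 (limma adjusted p = 0.641). Of 11 tested genes of these complexes, their kinases and phosphatases, limma called 0 higher and 0 lower. An unadjusted p under 0.05 was reached by 3, all lower, beside a background of 17.1% lower among the 10120 probe sets tested. PDHB and DLAT, subunits of pyruvate dehydrogenase, had log2 fold changes of -0.50 and -0.47 (adjusted p = 0.168 and 0.156 from limma). The median of the 11 was -0.17, against -0.16 for the 3 branched-chain subunits.

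The arrays measure RNA of the whole sample, in which fewer cells of a type and less RNA per cell cannot be told apart. All 9 granulosa cell markers, such as FSHR, CYP19A1 and FOXL2, were above the noise threshold, and 0 passed in limma (adjusted p from 0.272 to 0.995), nor did any reach an unadjusted p under 0.05. Of 4 measured theca cell markers 2 rose, CYP17A1 and ALDH1A1, and of 4 stromal markers above the threshold 2 rose, DCN and OGN. Over all probe sets tested, 1.56% were called higher. ALDH1A1 and OGN had a mean above 100 only in High A4 (189 and 107, against 53.2 and 37.5 in Control). The noise filter therefore let them in through their higher group. The other tested markers did not pass, with log2 fold changes of 1.13 (INSL3), -0.18 (NR2F2), 0.80 (LUM) and 0.69 (COL1A1). The summed intensity of the 4 theca markers was 1540 to 4361 in High A4 and 525 to 1341 in Control, and that of 7 stromal markers was 1658 to 3159 in High A4 and 614 to 2351 in Control. The 4 markers that rose differed in their order over High A4 replicates 1 to 4. CYP17A1 had 1772, 459, 450 and 412 there, and ALDH1A1 had 187, 205, 175 and 189. DCN had 398, 321, 602 and 227, and OGN had 88.7, 99.8, 130 and 110. The 7 leukocyte markers and 5 smooth muscle and pericyte markers were under the threshold, as were 5 of 6 endothelial markers. The part of theca or stromal cells in the BCAT2 values was not tested.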

How the data were processed

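RNA of granulosa cells from 4 High A4 and 4 Control cows was measured on 1 array each, and groups came from the sample titles. The authors deposited 1 table of normalized linear intensity (arbitrary units). Robust Multi-Array Averaging is named in their methods, but GCRMA and Affymetrix Expression Console in the processing notes of the submitters. Which of them made the table is not settled, and no source used here gives versions. The number of arrays limits the precision.

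On the log2 scale, all probe sets whose High A4 or Control mean exceeded 100, the noise threshold of the methods, were compared by limma 3.58.1 (R 4.3.3, Benjamini-Hochberg over all of them, threshold 0.05), after the code was tested on simulated data. Values of BCAT1 come from the fit without this filter. The platform table gives 18457 probe sets 1 symbol and 688 several, and 7628 are unnamed.

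The 8 genes, the pathway and marker lists and the rules were chosen with earlier results of these data known. Named were the 8 genes, in each other list the tested gene with the largest absolute log2 fold change (2 for the related dehydrogenases), and the 3 genes most like BCAT2. Other genes were named after their values were seen. Alternatives were other noise filters, scalings, an offset of 50, a trend with a robust prior, analysis of variance, blocking on the replicate number, and leaving out each cow. Centring on the probe sets tested was added after the data were seen. A mean over several probe sets of a gene was not taken, as each of the 8 genes had 1. No sequences were used here.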

Additional observations from a re-analysis of the deposited data

Results flagged for a closer look

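Among 38 sets of 4 cows, those of the named genes in each group, 2 held a cow far from the other 3, where chance gives about 1 in 20. Both were Control replicate 3. For IVD this cow had 653 and the next Control cow 399, a gap of 0.838 of the range of log2 values. For DLAT it had 234 and the next Control cow 303, a gap of 0.841 of the range. Without Control replicate 3 the log2 fold change of IVD was 0.16 (adjusted p = 0.628 from limma).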

How the results depend on the processing

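BCAT2 kept its direction under all 18 alternatives, as did BCAT1, BCKDHA, BCKDK and MCCC1. Of the 8 genes 1, BCAT2, was called without the noise filter (log2 fold change 0.93), with cyclic loess (1.08) and with arrays centred on the probe sets tested (1.09), and 0 otherwise, also with any cow left out. Where BCAT2 was called, limma called 2267 of 26773, 182 of 10120 and 183 of 10120 probe sets higher, in that order. BCKDHB turned to 0.052 under quantile normalization, to 0.073 under cyclic loess and to 0.060 under that centring, IVD to 0.10, 0.13 and 0.13, and DBT to 0.0094 with cyclic loess. With 1 cow left out BCKDHB ranged from -0.19 to 0.086 and IVD from -0.16 to 0.16. Of the other pathway genes and related dehydrogenases 0 were called, but 1 in the analysis of variance (SLC3A2), and 0 to 2 with 1 cow left out (ECHS1 and MMAB without High A4 replicate 4, SLC7A5 without Control replicate 4). Over all probe sets tested, limma called 575 of 10211 lower without High A4 replicate 4, and 51 of 10142 without Control replicate 4.

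Over all probe sets, the 158 higher and 63 lower became 2267 and 440 without the noise filter, 68 and 17 where the mean of all 8 arrays had to exceed 100, and 96 and 24 in the analysis of variance. Quantile normalization gave 19 lower ones, cyclic loess 18, and centring on the probe sets tested 19. With 1 cow left out, the higher ranged from 114 to 302 and the lower from 9 to 575. Without High A4 replicates 1 to 4 the lower numbered 35, 20, 19 and 575, and without Control replicates 1 to 3 they numbered 14, 9 and 37. The cause was not tested.

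Replicate numbers name different cows, and the correlations of same-numbered deviations were 0.19, -0.22, -0.11 and 0.20. With the replicate number as a block, 135 probe sets were higher and 25 lower, and BCAT2 had an adjusted p of 0.116 from limma. Genes near an intensity of 100, such as BCKDHA and MCCC1, and BCAT1 under it, have the least signal over background.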
